A study of Mus musculus with 9 samples.

Results

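The cells described here are barcodes of mouse bone marrow that carry transcripts of the T-cell receptor complex. They were chosen by measured values: a barcode was taken as a CD3-gated cell when its UMIs (unique molecular identifiers, the count of captured transcripts) of *Cd3e*, *Cd3d*, *Cd3g*, and *Trac* summed to at least 2, with 0 UMIs of the NK genes *Ncr1*, *Klre1*, and *Klrb1c*, of the B-cell gene *Cd79a*, and of the plasmacytoid dendritic gene *Siglech*. Of 39051 barcodes that passed the quality limits, 1376 (3.52%) were CD3-gated cells. The levels of these 9 genes in the gate are therefore given as a description, and no test of them is read as a result. The 4 marker genes did enter the fits of expression below. All 4 are among the genes called in the whole gate between the strains NZB and NZW.

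Femur marrow was taken from female mice of 3 strains at 9 to 10 weeks of age, with 3 mice per strain and 1 library per mouse (10x Genomics 3′ v3.1 chemistry). NZB (New Zealand Black) and NZW (New Zealand White) are inbred parents, and NZBWF1 is their F1 generation, bred from an NZW mother and an NZB father, whose females develop a lupus-like disease. All mice came from 1 supplier and were delivered together, and no treatment is named for any of them. The marrow was flushed, filtered, and cleared of red cells by lysis, without a sort for T cells, so every lineage of the marrow was in the same library.

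The name "T cells" held for only a part of the gate. In 845 of the 1376 gated cells (61.4%), more than 5% of the UMIs came from 39 genes that mark neutrophils, monocytes and macrophages, erythroid cells, myeloid precursors, or plasma cells, and the neutrophil genes (*S100a8*, *S100a9*, *Ltf*, *Camp*, *Ngp*, *Lcn2*, *Retnlg*, *Ly6g*, *Cebpe*) were the leading list in 841 of these 845. The share of UMIs in the 39 genes had few intermediate values: 501 gated cells lay below 1%, 14 between 1% and 2%, 16 between 2% and 5%, 11 between 5% and 10%, 25 between 10% and 20%, 39 between 20% and 30%, and 770 at 30% or more. The 845 are called myeloid-rich gated cells below, and the other 531 myeloid-poor gated cells. The use of the 5% limit for a second reported population was decided after the gate had been seen.

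The strains differed in this mixture. Of the gated cells, 18.1% ± 9.58 were myeloid-rich in NZB, 79.9% ± 4.68 in NZW, while NZBWF1 stood at 49.3% ± 6.56 (mean ± SD over 3 mice), and the ranges of the 3 strains did not overlap. The marker genes themselves differed between the populations. In myeloid-poor cells, *Cd3d* gave 31.9% of the UMIs of the 4 markers, and 497 of 531 cells (93.6%) held at least 2 of the 4. In myeloid-rich cells *Cd3d* gave 90.3%, 762 of the 845 held *Cd3d* alone, and 77 (9.11%) held at least 2 markers. NZB had a *Cd3d* share of 41.2% in its myeloid-rich cells, NZW of 95.2%, and NZBWF1 of 86.6%. For these reasons cell numbers and counts of called genes are given below for the whole gate and for the myeloid-poor cells, single genes mainly for the latter, and "T cell" is used only of the latter.

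**Figure D1:**
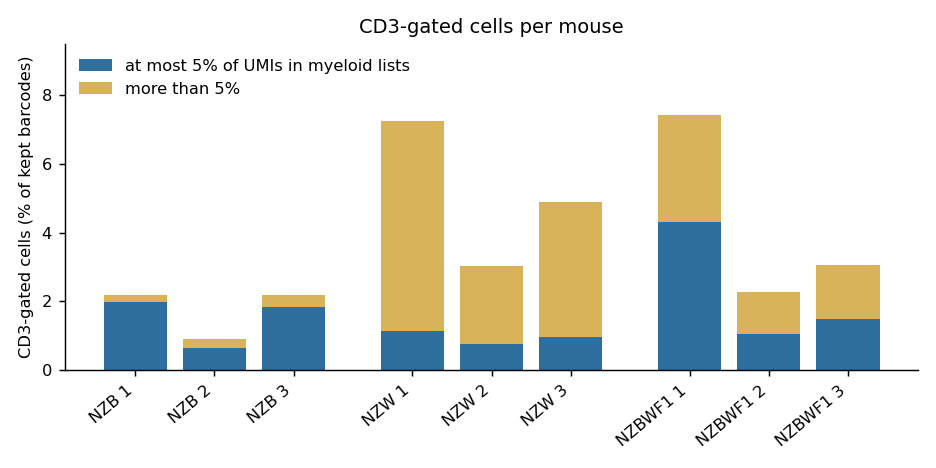
CD3-gated cells as a percent of the kept barcodes of each of the 9 mice, divided into cells with at most 5% of UMIs in the 39 myeloid, erythroid, and plasma-cell genes (blue) and cells with more (yellow). The blue part was 0.646% to 4.33% over all mice, and the yellow part was 0.204% to 0.365% in the NZB mice, 2.27% to 6.13% in those of NZW, and 1.24% to 3.12% in those of NZBWF1.

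At the edge of the rule, 2138 barcodes held exactly 1 marker UMI and met every other condition; 95% of them were myeloid-rich and their level of *Trbc2*, a T-cell receptor gene that the rule did not use, was 17.9 CPM (counts scaled to an equal total of UMIs). Just inside, 676 cells held exactly 2 marker UMIs, with 87.3% myeloid-rich and *Trbc2* at 104.9 CPM. The 700 cells with 3 or more were 36.4% myeloid-rich, with *Trbc2* at 912 CPM. The NK condition removed 341 barcodes whose *Trbc2* level was 901 CPM. A further 1124 barcodes met the marker conditions but not the UMI, gene, or mitochondrial limit. Their *Trbc2* level was 1136 CPM, and 796 of them were myeloid-poor. Some cells with T-cell receptor transcripts therefore lie outside the gate.

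Depth per cell was low, and totals differed among mice. The kept barcodes numbered 2455 to 5684 per mouse, with 8106539 to 18663189 UMIs, of which the gated cells held 96250 to 821446 and the myeloid-poor cells 62986 to 185339. A myeloid-poor cell had a median of 1278 to 1515 UMIs and 682 to 758 genes depending on the mouse, with 4.57% to 6.07% mitochondrial UMIs, and a myeloid-rich cell had a median of 1983 to 3066 UMIs. Among kept barcodes, 170 sequences occurred in more than 1 library; 19 gated cells had such a sequence, and 1 sequence was gated in more than 1 library. *Trbc1*, described below, was 0 in every NZW mouse and present in every other mouse, so it does not set NZB apart from NZBWF1. In myeloid-poor cells *Ftl1*, also described below, was 100% of the sum of *Ftl1* and *Ftl1-ps1* in each NZB mouse. In the NZBWF1 mice it was 50.8% to 52.8% of that sum. By these measures no library stood apart from the others of its strain label.

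T cells recognise antigen through the T-cell receptor, a pair of variable chains (alpha with beta, or gamma with delta) that sits in the membrane with the CD3 chains gamma, delta, and epsilon and the zeta chain. *Cd3g*, *Cd3d*, and *Cd3e* encode the CD3 chains and *Trac*, *Trbc1*, *Trbc2*, and *Trdc* the constant parts of the receptor chains. T cells mature in the thymus and reach the marrow by the blood; marrow is known as a site where memory T cells, CD8 cells above all, are kept. In lupus-prone mice T cells give help to autoreactive B cells. The NZW strain is known for a germline deletion at the receptor beta locus that takes away the first beta constant gene.

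Much of what follows turns on pairs of genes with nearly the same sequence. The counting was made on the mm10 genome, which is that of another strain, so a read of NZB or NZW that differs from it can be given to a copy or lost; the part of this in any result was not tested. The 2 beta constant genes share 489 of 512 aligned coding bases (95.51%), with 23 differing bases and 6 gap columns. The window of 90 coding bases in which they differ most is shown first, with the 14 differing bases in capitals. Only coding bases were compared, and which bases the reads of these 3′ libraries covered was not examined. *Trbc1* lies at chr6:41538218-41539881 and *Trbc2* at chr6:41546730-41548352 (both plus strand, GRCm38), and the windows are the coding bases 400 to 489, at chr6:41539235-41539324 and chr6:41547778-41547867.
Trbc1: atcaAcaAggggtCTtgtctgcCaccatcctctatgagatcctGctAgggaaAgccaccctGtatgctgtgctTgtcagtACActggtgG
Trbc2: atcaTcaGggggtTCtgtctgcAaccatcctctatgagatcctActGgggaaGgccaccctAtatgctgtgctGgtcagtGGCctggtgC

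The second pair is the ferritin light chain gene *Ftl1* (chr7:45457944-45459884, minus strand) and *Ftl1-ps1* (chr13:74399694-74407346, plus strand), which is named as a pseudogene of it and annotated as protein coding. Their coding sequences share 547 of 549 bases (99.64%). Both differing bases fall in the window of coding bases 415 to 504, at chr7:45458155-45458244 and chr13:74407018-74407107, and are in capitals.
Ftl1: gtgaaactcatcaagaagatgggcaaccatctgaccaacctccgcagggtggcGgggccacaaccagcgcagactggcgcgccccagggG
Ftl1-ps1: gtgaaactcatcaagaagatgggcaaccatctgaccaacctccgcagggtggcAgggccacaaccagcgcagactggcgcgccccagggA

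The first question was whether marrow T cells are more or less numerous in NZBWF1 than in its parents. Gated cells numbered 54, 46, and 72 in NZB replicates 1 to 3, 313, 156, and 243 in those of NZW, and 191, 127, and 174 in those of NZBWF1. As a share of the kept barcodes this was 2.2%, 0.901%, and 2.19% in NZB (mean 1.76 ± 0.748), 7.26%, 3.03%, and 4.91% in NZW (5.07 ± 2.12), and 7.44%, 2.29%, and 3.06% in NZBWF1 (4.26 ± 2.78). All NZW and NZBWF1 mice lay above all NZB mice, while NZW and NZBWF1 overlapped. With the edgeR quasi-likelihood test the gate was smaller in NZB than in NZW (log2 fold change -1.53, SE 0.53, adjusted p = 0.0144 over the T, NK, and B gates) and larger in NZBWF1 than in NZB (1.27, SE 0.53, adjusted p = 0.0401). It did not pass for NZBWF1 against NZW (-0.26, SE 0.51, adjusted p = 0.808) or against the mid-parent value, the mean of the log levels of both parents (0.51, SE 0.44, adjusted p = 0.394). The call of NZB against NZW is lost without NZB replicate 2 (-1.20) or NZW replicate 1 (-1.18), and that of NZBWF1 against NZB without NZB replicate 2 (0.94), NZB replicate 3 (1.47), NZW replicate 3 (1.27), or NZBWF1 replicate 1 (0.61). Both are lost with at least 3 marker UMIs, with T markers alone, with thinned barcodes, and with at least 2 of the 4 markers, and the second also at 500 UMIs. With the replicate number as a block both pass, at -1.52 (adjusted p = 0.000487, edgeR) and 1.19 (adjusted p = 0.0034). An exact permutation test cannot give less than 0.1 for 3 mice against 3 and gave p = 0.1 for both.

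The myeloid-poor cells did not show that order. They numbered 49, 33, and 60 in NZB, 49, 39, and 48 in NZW, and 111, 58, and 84 in NZBWF1, or 1.49% ± 0.735, 0.955% ± 0.190, and 2.28% ± 1.78 of the kept barcodes. The difference between the parents then pointed the other way and did not pass (0.62, SE 0.57, adjusted p = 0.426). NZBWF1 did not pass against NZB (0.61, SE 0.56, adjusted p = 0.436), NZW (1.23, SE 0.56, adjusted p = 0.126), or the mid-parent value (0.92, SE 0.47, adjusted p = 0.0984). The high mean of NZBWF1 rested on replicate 1, with 4.33% against 1.04% and 1.48% in the other mice. Without it NZBWF1 lay at -0.22 against NZB and 0.09 against the mid-parent value. Against the mid-parent value NZBWF1 passed without NZBWF1 replicate 2 (1.27, adjusted p = 0.0373, edgeR) and at 2000 UMIs and 1000 genes (0.98, adjusted p = 0.0304), and NZB passed against NZW at 500 UMIs and 250 genes (0.84, adjusted p = 0.0375).

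*Cd3d*, the marker that led the myeloid-rich cells, was then followed in all kept barcodes with at least 10% of their UMIs in the neutrophil list (14839 barcodes, a group chosen after the *Cd3d* values of the gate had been seen). In these, *Cd3d* (chr9:44981786-44987339, plus strand) was at 10.0, 8.23, and 8.72 CPM in NZB, at 212, 133, and 175 CPM in NZW, and at 139, 85.7, and 93.0 CPM in NZBWF1. The lowest NZW or NZBWF1 mouse was far above the highest NZB mouse, with 119 UMIs in all of NZB against 2638 in NZW and 1438 in NZBWF1. The difference between the parents was -4.11 on the log2 scale, and -3.79 in the barcodes of this group that lay outside the gate. Both are given as descriptions without a test result. *Cd3d* is a gene of the rule, barcodes of the gate are part of the group, and the group was chosen for this gene. In the edgeR fit of these barcodes 1084 of 9606 genes were called (11.3%), and 714 or 678 without NZW replicate 2 or NZW replicate 3.

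The neighbours of *Cd3d* on chromosome 9 were then read in these barcodes. *Cd3g* (chr9:44969572-44980431, minus strand), which lies next to it, had strain means of 5.71 CPM (NZB), 5.25 (NZW), and 5.44 (NZBWF1; 0.27 for NZB against NZW, a description). *Cd3e* (chr9:44998740-45009627, minus strand) was at 1.61, 1.01, and 2.30 CPM, and *Trac* at 1.15, 0.92, and 1.26 CPM. Of the next genes on either side, *Ube4a* and *Atp5l* did not pass (adjusted p = 0.994 and 0.535), nor did *Jaml* (-0.55, adjusted p = 0.253), whereas *Mpzl3* was lower in NZB, the direction of *Cd3d* (-1.26, SE 0.36, adjusted p = 0.0322, edgeR). *Mpzl3* had only 24 UMIs in NZB and 73 in NZW, in a fit that called 11.3% of genes. Its call was not followed with DESeq2 or with a mouse left out. In the myeloid-poor cells, by contrast, *Cd3d* was at 1094, 1016, and 945 CPM in NZB, at 1231, 814, and 792 in NZW, and at 863, 869, and 893 in NZBWF1, so NZW spanned the range of the other strains, while the NZB mice lay above those of NZBWF1. Whether the transcript counted as *Cd3d* in neutrophil-rich barcodes of NZW and NZBWF1 is that of *Cd3d* or of a sequence assigned to it cannot be told from UMI counts.

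**Figure D2:**
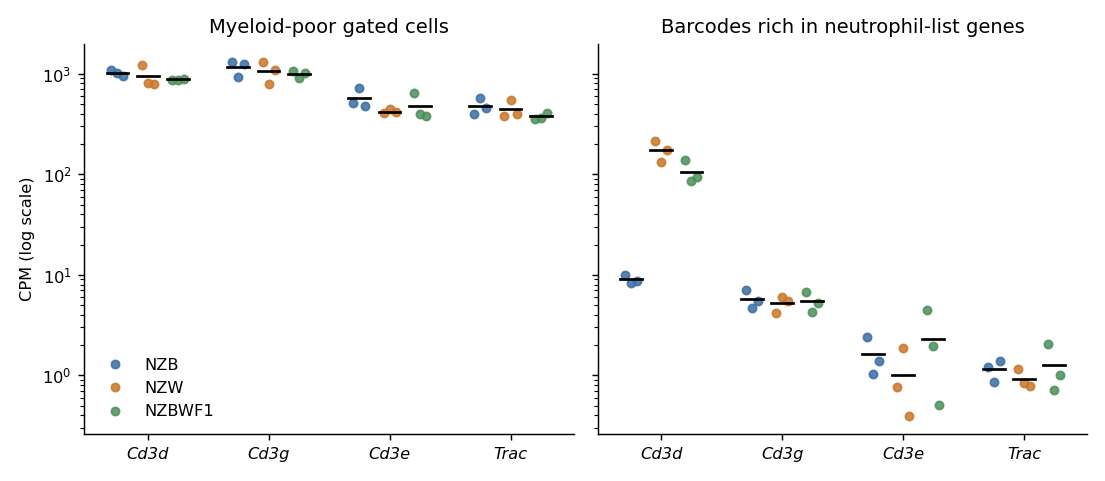
CPM (log axis) of the 4 marker genes of the gate in the myeloid-poor gated cells (left) and in all kept barcodes with at least 10% of UMIs in the neutrophil list (right); points are mice and lines are strain means. On the right, *Cd3d* separates NZB (mean 9.00 ± 0.93) from NZW (173 ± 39.4) and NZBWF1 (106 ± 28.7), while the other 3 genes do not separate the strains.

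Expression was compared on UMIs summed per mouse. In the whole gate, 1379 of 4999 genes (27.6%) were called between NZB and NZW, 607 higher and 772 lower in NZB. The genes of the T-cell receptor complex and its signalling (without the marker genes of the rule) were higher in NZB in 21 of 23 tested and lower in 0, with a median log2 fold change of 1.70 against 0.03 over all genes, and the neutrophil list was lower in 9 of 9 with a median of -2.65. *Trbc2* was at 1120 CPM in NZB, 298 in NZW, and 616 in NZBWF1, and *Lck*, the kinase that starts receptor signalling, at 409, 62.6, and 156. *S100a8*, a neutrophil calcium-binding protein, stood at 21600 ± 12067, 104049 ± 7780, and 73561 ± 12643 CPM. In the myeloid-poor cells 0 of 21 tested genes of the same list were called by edgeR or DESeq2, 1 (*Cd2*) had an unadjusted p under 0.05, and their median was -0.04. The percentages called in the whole gate were 8.40% for NZBWF1 against NZB, 4.48% against NZW, and 0.0800% (4 genes) against the mid-parent value. With 1 mouse left out, the 420 genes of NZBWF1 against NZB became 210, 266, or 262 (without NZB replicate 1, NZB replicate 3, or NZBWF1 replicate 3) and stayed within 1.5 times otherwise. The 224 genes against NZW became 42, 400, or 51 without NZW replicate 1, 2, or 3, 347 without NZB replicate 2, and 48 or 112 without NZBWF1 replicate 1 or 3, and the 4 genes became 16 or 10 without NZB replicate 2 or NZW replicate 1. In the cells without the myeloid-rich part the counts of called genes were 5, 5, and 4 for the same contrasts, and 24 between the parents; without NZB replicate 3, the first and the last of the 3 contrasts had 3 and 2.

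In the myeloid-poor cells 1640 genes could be tested. The call rate was 1.46% for NZB against NZW (24 genes, 11 higher and 13 lower in NZB), 0.305% for NZBWF1 against NZB (5 genes), 0.305% against NZW (5 genes), and 0.244% against the mid-parent value (4 genes). These comparisons share mice: the NZBWF1 mice enter 3 of them, and each parent enters 3. All values that follow are for myeloid-poor cells unless another population is named.

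The receptor constant genes were described first. *Trac*, part of the rule, was at 394, 572, and 457 CPM in NZB, 378, 552, and 401 in NZW, and 356, 363, and 411 in NZBWF1. *Cd3g*, also part of the rule, was at 1297, 921, and 1250 CPM in NZB, 1315, 787, and 1098 in NZW, and 1074, 898, and 1021 in NZBWF1. *Cd3e* was at 509, 714, and 478, then 406, 442, and 412, then 648, 401, and 379 CPM in the same order. For *Trac* and *Cd3g* the strains overlapped; for *Cd3e* the NZB mice lay above the NZW mice and NZBWF1 overlapped with both.

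*Trbc1* separated the strains. It was at 1030, 333, and 701 CPM in NZB, at 0, 0, and 0 in NZW, and at 523, 306, and 437 in NZBWF1. All NZB and NZBWF1 mice were above all NZW mice, and the ranges of NZB and NZBWF1 overlapped. Against the floor that 3 UMIs over the NZW mice set, *Trbc1* was at least 56.7-fold higher in NZB and at least 35.2-fold higher in NZBWF1 (adjusted p = 4.1e-06 and 8.9e-05, edgeR). It was also higher in NZBWF1 than the mid-parent value (adjusted p = 0.00615), a call that is lost without NZB replicate 3 (adjusted p = 0.0867). With a parent at 0, that mean depends on the prior count of the fit. The same 0 stood in the NK gate, where *Trbc1* was at 300 CPM in NZB, 0 in NZW, and 244 in NZBWF1.

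*Trbc2*, the other beta constant gene, was at 1424, 1270, and 1443 CPM in NZB, 2238, 1766, and 1731 in NZW, and 1586, 1185, and 1631 in NZBWF1. The 3 NZW mice were highest, and the difference between the parents was -0.45 (SE 0.18, adjusted p = 0.466). The sum of both genes was closer among strains, at 2067 ± 431 CPM in NZB, 1912 ± 283 in NZW, and 1889 ± 346 in NZBWF1 (SD over 3 mice). *Trbc1* made up 42.0%, 20.8%, and 32.7% of that sum in NZB, 0% in NZW, and 24.8%, 20.5%, and 21.1% in NZBWF1. Reads that the differing bases shown above do not cover may have been split between the genes or dropped.

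The gamma-delta receptor genes were sparse. *Trdc*, the delta constant gene, had 36 UMIs in NZB, 24 in NZW, and 40 in NZBWF1, and the gamma constant genes *Tcrg-C1*, *Tcrg-C2*, and *Tcrg-C4* had 2, 5, and 13 UMIs in NZB, 9, 25, and 24 in NZW, and 19, 33, and 24 in NZBWF1. Variable segments were seldom counted: 21 of 176 receptor variable genes had any UMI, the highest being *Trgv2* with 10.

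The ferritin pair differed strongly and in opposite directions. *Ftl1*, the light chain of the iron store ferritin, was at 1501, 1064, and 1606 CPM in NZB, at 42.0, 27.6, and 52.8 in NZW, and at 707, 1242, and 816 in NZBWF1. It was higher in NZB than in NZW (5.04, SE 0.32, adjusted p = 1.8e-13), in NZBWF1 than in NZW (4.39, SE 0.33, adjusted p = 1.3e-11), and in NZBWF1 than the mid-parent value (1.87, SE 0.23, adjusted p = 1.5e-06). *Ftl1-ps1* ran the other way, at 0 in all 3 NZB mice, at 1189, 911, and 1615 CPM in NZW, and at 685, 1108, and 777 in NZBWF1, at least 101.9-fold higher in NZW and at least 65.3-fold higher in NZBWF1 than in NZB. It was likewise above the mid-parent value (adjusted p = 1.2e-07).

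The sum of the pair was 1390 ± 288 CPM in NZB, 1279 ± 367 in NZW, and 1778 ± 505 in NZBWF1, and these ranges overlapped. *Ftl1* was 100% of the sum in NZB, 3.41%, 2.94%, and 3.16% in NZW, and 50.8%, 52.8%, and 51.2% in NZBWF1. In the neutrophil-rich barcodes the *Ftl1* share was 99.5%, 3.49%, and 54.0% in the same order of strains. *Fth1*, the ferritin heavy chain, was at 1410, 1602, and 2269 CPM (strain means) and did not pass (NZBWF1 against the mid-parent value 0.56, adjusted p = 0.891). The 2 genes differ at 2 coding bases, and the rest of their transcripts was not compared. Assignment of reads between them cannot be told apart from expression here.

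**Figure D3:**
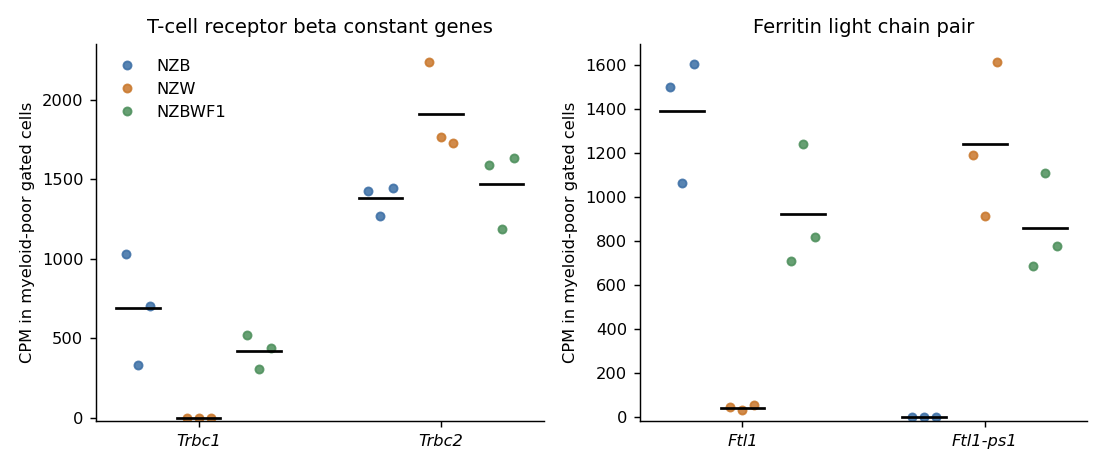
CPM (linear axis) in the myeloid-poor gated cells of the 2 beta constant genes (left) and the ferritin light chain pair (right), with 1 point per mouse and lines at strain means. *Trbc1* is at 0 in the 3 NZW mice and *Ftl1-ps1* at 0 in the 3 NZB mice, and NZBWF1 holds counts of both members of each pair.

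Of 22 tested interferon-stimulated genes, 2 were higher and 3 lower in NZB than in NZW, with a median of -0.18 (-0.002 over all 1640 genes). Over all 1640 genes 24 (1.46%) were called between the parents, the share to set beside this and the list counts below. *Ly6a* and *Ly6c2* are among the called interferon-stimulated genes and are described below. The lists overlap, so the same call can be counted in more than 1 of them. *Ifitm2*, a membrane protein that restricts virus entry, was at 114, 31.8, and 183 CPM in NZB, 1539, 1794, and 1530 in NZW, and 496, 841, and 873 in NZBWF1. The 3 strains did not overlap: NZB was lowest (-3.76 against NZW, SE 0.31, adjusted p = 1.6e-09), and NZBWF1 was above NZB (2.59, SE 0.31, adjusted p = 5.9e-06) and below NZW (-1.17, SE 0.24, adjusted p = 0.0162). The last call is lost at 500 UMIs, and also if NZBWF1 replicate 1 or either of NZW replicates 1 and 2 is left out (adjusted p up to 0.519). *Apobec3*, a deaminase that restricts retroviruses, was at 229, 159, and 285 CPM in NZB, 83.9, 27.6, and 52.8 in NZW, and 232, 105, and 128 in NZBWF1. It was higher in NZB than in NZW in every mouse (2.07, SE 0.43, adjusted p = 0.00293), without passing in NZBWF1 against either parent; the call is lost with DESeq2 and without NZB replicate 3. *Mndal*, a member of the interferon-inducible p200 family, was at 76.3, 15.9, and 30.5 CPM in NZB, 168, 179, and 201 in NZW, and 80.9, 115, and 89.9 in NZBWF1 (-2.09, SE 0.47, adjusted p = 0.00765), a call lost with DESeq2 and without NZB replicate 2, NZB replicate 3, or NZW replicate 3. A further gene of that family, *Ifi202b*, had 7 UMIs in NZB, 0 in NZW, and 10 in NZBWF1 and was too low to test.

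Both called genes of the Ly6 family, small membrane proteins used as markers of T-cell memory and activation, ran in opposite directions. *Ly6c2* was at 50.9, 0, and 30.5 CPM in NZB, 476, 497, and 443 in NZW, and 318, 564, and 257 in NZBWF1. It was lower in NZB than in NZW (-3.95, SE 0.46, adjusted p = 6.4e-07) and higher in NZBWF1 than in NZB (3.59, SE 0.46, adjusted p = 5.9e-06) and than the mid-parent value (1.61, SE 0.32, adjusted p = 0.00747), the last call being lost without NZB replicate 3 or without NZBWF1 replicate 2. *Ly6a*, the stem cell antigen Sca-1, was at 750, 1619, and 915 CPM in NZB, 266, 345, and 201 in NZW, and 572, 315, and 539 in NZBWF1 (2.07 for NZB against NZW, SE 0.35, adjusted p = 0.00291). Without NZW replicate 1 that call is lost (adjusted p = 0.135). *Ly6c2* has a near copy, *Ly6c1*, so its level is uncertain.

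Among 12 tested MHC class I genes, 1 was higher and 1 lower in NZB. *H2-Q7*, a non-classical class I chain, was at 331, 175, and 295 CPM in NZB, 42.0, 41.4, and 21.1 in NZW, and 259, 191, and 180 in NZBWF1. NZW was lowest in every mouse, against NZB (2.99 for NZB against NZW, SE 0.42, adjusted p = 8.5e-06) and against NZBWF1 (2.60 for NZBWF1 against NZW, SE 0.42, adjusted p = 0.000259). *H2-T23*, the Qa-1 molecule that presents to NK and CD8 receptors, was at 114, 79.4, and 122 CPM in NZB, 392, 331, and 274 in NZW, and 216, 239, and 199 in NZBWF1 (-1.59, SE 0.33, adjusted p = 0.00286). The classical chains *H2-D1* (0.59, adjusted p = 0.0944) and *H2-K1* (-0.22) and their partner *B2m* (0.24) did not pass, although *H2-D1* passed with DESeq2. Class I genes are alike in sequence and differ between strains, and what that contributes was not tested.

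*Slamf6*, a receptor of the SLAM family that T cells use in contact with B cells, was at 191, 79.4, and 183 CPM in NZB, 616, 428, and 422 in NZW, and 270, 268, and 199 in NZBWF1. Every NZW mouse was above every other mouse, and the parents differed by -1.62 (SE 0.31, adjusted p = 0.00092). It was the 1 gene called of 4 tested in its family, and of 2 tested activation and checkpoint genes.

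Of 20 tested memory and effector genes, *Nkg7* was called higher and *Ly6c2* lower in NZB, with a median of 0.01. *Nkg7*, a protein of cytotoxic granules, was at 521, 635, and 783 CPM in NZB, 294, 193, and 264 in NZW, and 372, 392, and 430 in NZBWF1, with no overlap among the strains (1.39 for NZB against NZW, SE 0.26, adjusted p = 0.00092). *Ccl5*, a chemokine of memory and effector CD8 cells, had the same order of parents at 1373, 1000, and 1027 CPM in NZB and 755, 221, and 580 in NZW, but did not pass with edgeR (1.13, SE 0.32, adjusted p = 0.159) and passed with DESeq2. *Runx3*, the transcription factor that sets the CD8 lineage, was at 229, 143, and 214 CPM in NZB, 56.0, 82.8, and 84.4 in NZW, and 178, 162, and 148 in NZBWF1 (1.40, SE 0.36, adjusted p = 0.033). *Cd7*, a surface protein of T and NK cells, was at 269 ± 50, 111 ± 26.8, and 139 ± 53.5 CPM (1.33, SE 0.35, adjusted p = 0.0419), and *Ctla2a*, a protease inhibitor, at 244, 89.5, and 126 CPM (1.44, SE 0.37, adjusted p = 0.033). The calls of *Runx3*, *Cd7*, and *Ctla2a* are each lost in 8 or 9 of the alternative settings.

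Of 14 tested genes of naive and recirculating cells, 0 were called by edgeR or DESeq2, 1 (*Il7r*) had an unadjusted p under 0.05, and the median was 0.04. *Lef1*, a transcription factor of naive T cells, differed by 0.31, *Ccr7* by -0.35, and *Tcf7* by -0.21 between NZB and NZW. *Il7r*, the receptor for the survival cytokine IL-7, was at 167 CPM in NZB, 447 in NZW, and 297 in NZBWF1 and did not pass (-1.37, SE 0.40, adjusted p = 0.168). The lists of homing receptors (13 tested, median 0.06), cytokine receptors (10, median -0.14), early response genes (5), and cell division (7, median -0.47) had no gene called by edgeR or DESeq2, with 1, 3, 1, and 0 genes at an unadjusted p under 0.05, and of 14 transcription factors *Runx3* alone was called. In simulated myeloid-poor data the test found 29 of 100 genes changed 2-fold and 85 of 100 changed 4-fold. Some of the further genes named as T-cell markers had the following strain means: *Lck* at 488, 401, and 363 CPM, *Lat* at 226, 242, and 269, *Cd5* at 121, 163, and 129, and the transcription factor *Bcl11b* at 192, 311, and 282.

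The remaining called genes were in none of the lists, except *Tpm3-rs7*, which the study names from these samples. *Tpm3-rs7*, a tropomyosin-related gene with near copies, was at 165, 222, and 183 CPM in NZB, 0 in all 3 NZW mice, and 113, 76.4, and 103 in NZBWF1, at least 14.9-fold and at least 8.03-fold higher than in NZW. Ribosomal protein genes, which have many processed copies, were called in both directions: *Rps3a1* stood at 6764 ± 110, 3115 ± 380, and 4909 ± 860 CPM (1.14, SE 0.16, adjusted p = 6.3e-06), *Rps2* at 1623, 4304, and 3204 (-1.37, SE 0.18, adjusted p = 2.7e-06), and *Rpl21* at 1926, 3569, and 2708 (-0.87, SE 0.16, adjusted p = 0.000906). *Rps2* was also higher in NZBWF1 than in NZB (0.93, SE 0.18, adjusted p = 0.00391), a call lost without NZB replicate 1 or NZB replicate 3. *mt-Nd1*, a mitochondrial gene of complex I, was at 1799, 3162, and 2169 CPM (-0.79). It is among the called genes, but its value is a description, since the limit of 10% mitochondrial UMIs used it. The median mitochondrial share of myeloid-poor cells was also lower in NZB (4.57% to 5.0% among mice) than in NZW (5.53% to 5.77%), without overlap, and its part in that difference was not tested. *Wdr89* stood at 44.3, 241, and 117 CPM (-2.48, SE 0.45, adjusted p = 0.000528). The noncoding RNA *Gm2682* had 1 UMI in NZB, 40 in NZW, and 41 in NZBWF1, a ratio of 40.2 for NZW over NZB (95% interval 6.82 to 1628, counting error only) and of 22.1 for NZBWF1 over NZB (3.75 to 893); the edgeR call of NZBWF1 against NZB is lost in 7 of 13 alternatives, with DESeq2 and without any 1 of the 3 NZB mice among them. *Rtf1* (-1.55, SE 0.40) and *Hnrnpf* (-0.91, SE 0.23), both at adjusted p = 0.033, are lost in 6 and 10 alternatives.

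Of the other genes that the study names from these samples, *Ctse*, the protease cathepsin E, was at 38.1, 47.6, and 0 CPM in NZB, 126, 82.8, and 127 in NZW, and 113, 115, and 51.4 in NZBWF1. Every NZB mouse was below every NZW mouse, and the difference did not pass (-2.08, SE 0.75, adjusted p = 0.295, edgeR), whereas in the whole gate it did (-3.46, SE 0.46, adjusted p = 2.4e-06). *Gm42031* had 24 UMIs in NZB, 0 in NZW, and 9 in NZBWF1, and *Htatip2* had 4, 0, and 7, both too low to test in myeloid-poor cells. In the whole gate *Gm42031* had 25, 0, and 28 UMIs, given as a description. The share of myeloid-rich cells in the whole gate moved with the strain, and its part in the values of *Ctse* and *Gm42031* there was not tested.

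In all 24 genes called between the parents, the mean CPM of NZBWF1 lay between those of NZB and NZW. The genes were chosen by the parents' difference, so this is a description; over all 1640 tested genes the mean of NZBWF1 lay between the parents in 663 (40.4%). *Ftl1*, *Ftl1-ps1*, *Trbc1*, and *Ly6c2* alone passed against the mid-parent value in the myeloid-poor cells. For each of the 4, a parent was at or near 0, so the mean of the logs lies far below the mean of the levels. *Ly6c2* in NZBWF1 was below the NZW range in 2 mice and above it in 1.

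The same genes were set beside the NK gate (427 cells) and the B gate (6433 cells) of the same mice, between NZB and NZW. Of the 24 genes called between the parents, 20 were tested in both other gates, and 18 of these had the same direction in all 3 (*Rtf1* and *Ctla2a* turned in NK cells). Only the sign was counted, whatever the size. The genes were chosen by their difference in these same mice, and the share over all tested genes was not computed, so the count is a description. As examples, *Ftl1* was 5.04 in myeloid-poor T cells, 4.81 in NK, and 5.27 in B cells, *Ifitm2* -3.76, -4.06, and -3.14, *H2-Q7* 2.99, 2.68, and 1.99, *Apobec3* 2.07, 1.70, and 3.32, and *Rps3a1* 1.14, 1.08, and 1.20. *Nkg7* stood apart. Its difference between the parents was 1.39 in T cells and 0.004 in NK cells, where it was at 2199 and 2166 CPM, and the interaction passed (1.36, SE 0.27, adjusted p = 0.0267, edgeR with mouse as a block). It was the 1 gene of 2193 called (0.0456%), against 461 of 2599 (17.7%) for the whole gate (287 without NZB replicate 1), and is lost in 5 of 9 fits that leave out 1 mouse (NZB replicate 2 or 3, NZW replicate 2 or 3, or NZBWF1 replicate 2). *Nkg7* is also a gene of the effector gate described below. The part of T-cell subset makeup in its difference was not tested.

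Against B cells 9 of 6175 genes differed (0.146%), compared with 1294 of 7870 (16.4%) for the whole gate. All 9 had a lower value of NZB against NZW in T cells than in B cells. *Ly6a* rose less in T cells (2.07) than in B cells (3.92; interaction -1.83). *Bcl2*, the survival protein, differed by 0.13 in T cells and 1.54 in B cells, *Gimap3*, a GTPase of lymphocyte survival, by -0.01 and 1.94, *Id2*, an inhibitor of helix-loop-helix factors, by -0.75 and 0.74, and *S100a6* by -0.57 and 1.20. When each mouse was left out in turn, 2 (without NZB replicate 3) to 19 genes (without NZW replicate 1) were called. The B gate itself held 673 cells in NZB and 2862 in NZW. As a share of the kept barcodes it was smaller in NZB (-1.61, SE 0.49, adjusted p = 0.0115, edgeR). The stages of B cells within the gate were not examined. The part of B-gate makeup in these 9 differences was not tested.

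**Figure D4:**
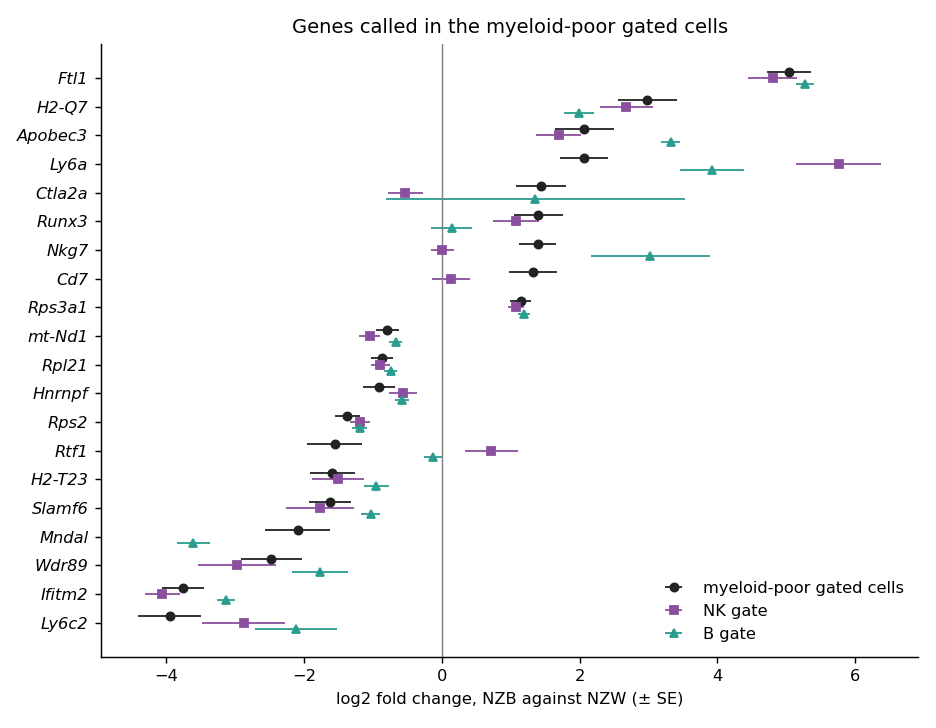
Log2 fold change of NZB against NZW (± SE) for genes called in the myeloid-poor gated cells (those with a strain at 0 or 1 UMI left out), in those cells and in the NK and B gates of the same mice. *Nkg7* is at 1.39 in T cells and near 0 in NK cells, whereas *Ftl1* and *Ifitm2* have the same direction in all 3 gates.

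T-cell subsets were then counted in the myeloid-poor cells, each thinned to 1000 UMIs so that depth was the same. CD8 cells (at least 1 UMI of *Cd8a* or *Cd8b1*, the chains of the coreceptor for MHC class I, and none of *Cd4*) numbered 221 of 531 and CD4 cells (at least 1 UMI of *Cd4*, the coreceptor for class II, and none of the CD8 genes) 25, with 285 in neither gate. UMIs of both were found in 0 cells, which allows a share of up to 0.692% (Clopper-Pearson, 95%) of cells with UMIs of both at this depth and sets no limit on cells that express both. The CD8 share was 34.7%, 54.5%, and 45.0% in NZB, 40.8%, 35.9%, and 27.1% in NZW, and 59.5%, 20.7%, and 40.5% in NZBWF1, so the NZBWF1 mice spanned the range of both parents. The CD4 share was 4.74%, 5.14%, and 4.44% in strain mean, and *Cd4* had only 14, 15, and 29 UMIs, so CD4 cells may be missed at this depth more often than CD8 cells. In the B gate, which should lack both, 3 and 4 of 6433 cells fell in the CD8 and CD4 gates.

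Effector cells (at least 2 UMIs of *Ccl5*, *Nkg7*, and *Gzmk*) made up 30.6%, 42.4%, and 33.3% in NZB, 20.4%, 7.69%, and 27.1% in NZW, and 14.4%, 32.8%, and 21.4% in NZBWF1. Every NZB mouse was above every NZW mouse, but the difference did not pass (0.87, SE 0.40, adjusted p = 0.231 over 6 gates, edgeR). The gate is built from genes that include *Nkg7* and *Ccl5*, so this share is not separate from their levels given above. Cells with *Trdc* made up 6.38%, 5.83%, and 6.14% (32 of 531 cells, against 2 of 6433 in the B gate), and cells with *Foxp3*, the factor of regulatory T cells, 3.36%, 1.37%, and 0.601% (9 of 531, against 0 of 6433). No gate passed in NZB against NZW or in NZBWF1 against the mid-parent value (0 of 6 each with edgeR), and effector between the parents was the 1 gate of either with an unadjusted p under 0.05. In the whole gate all 6 were higher in NZB than in NZW, CD8 by 2.36 and effector by 3.21, where the share of myeloid-rich cells moved with the strain.

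**Figure D5:**
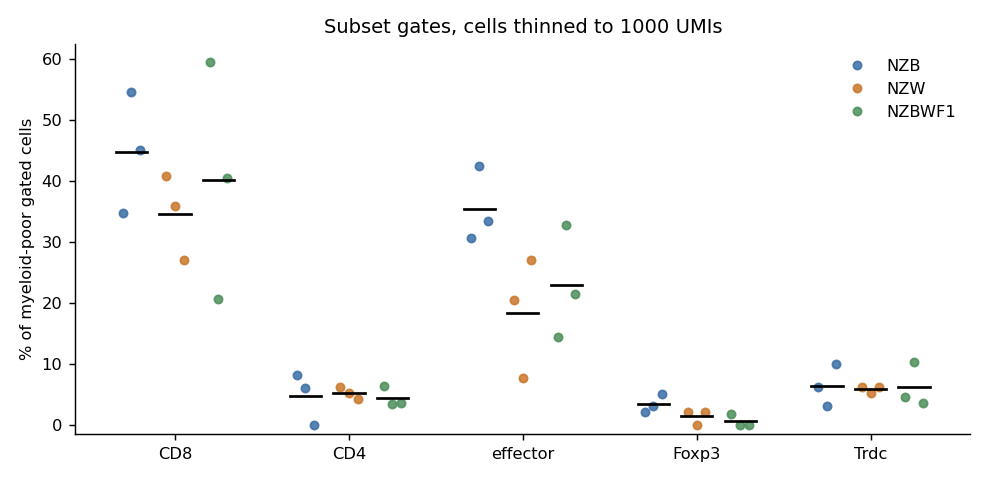
Percent of the myeloid-poor gated cells in 5 gates after thinning each cell to 1000 UMIs, with 1 point per mouse and lines at strain means; gates overlap, so shares do not sum to 100. The effector share is 30.6% to 42.4% in NZB and 7.69% to 27.1% in NZW, and the CD8 share of NZBWF1 runs from 20.7% to 59.5%.

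CD8 and CD4 cells were not tested against each other. The minimum chosen for the test was 10 cells of both in at least 3 mice, and 1 mouse alone met it (NZBWF1 replicate 1, with 71 and 10 cells), while the others had 1 to 7 CD4 cells. The values pooled over all mice without thinning (259 CD8 and 40 CD4 cells) are given as a description. Genes of naive cells had higher levels in CD8 cells, with *Lef1* at 394 CPM against 124 and *Ccr7* at 180 against 111. So had *Nkg7* at 502 against 111, *Runx3* at 190 against 49, *Eomes*, a factor of memory CD8 cells, at 108 against 0, and *Bcl2* at 677 against 198. In CD4 cells the levels were higher for *Zbtb7b*, which sets the CD4 lineage (49 against 2), *S100a4* (506 against 70), *Id2* (753 against 187), *Cd44*, a memory marker (235 against 58), and the genes of regulatory cells *Ikzf2* (704 against 96), *Foxp3* (124 against 0), *Tnfrsf4* (136 against 5), and *Izumo1r* (210 against 34). Some of these levels rest on few UMIs, with 4 in CD4 cells against 1 in CD8 cells for *Zbtb7b*, 11 against 2 for *Tnfrsf4*, and 10 against 0 for *Foxp3*. Markers of other cell types were also higher in the CD4 cells, with *Fcer1g*, a signalling chain of NK and myeloid cells, at 321 against 98 CPM and *Tyrobp*, an adaptor of the same cells, at 408 against 219, each in 5 of 40 CD4 cells; their part in these levels was not tested. Among CD8 cells of the thinned data, 37 were also in the effector gate. Cells with *Trdc*, whose level of that gene follows from the choice, held *Ccl5* at 2348 CPM and *Klrd1*, an NK receptor, at 516. They held *Trac* at 78 CPM, *Trbc2* at 1127, and *Trbc1* at 454, beside 497, 1628, and 461 in CD8 cells.

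Markers of other lineages were low in the myeloid-poor cells, as the 5% limit requires for the 5 lists it used. The neutrophil list summed to 297 to 5423 CPM over the mice and the monocyte and macrophage list to 318 to 3898. Of the lists that the limit did not use, the NK list summed to 173 to 1051 CPM with 4 of its 10 genes at 0, 3 of these being genes of the rule. The B-cell list summed to 252 to 3312 CPM in 8 mice and to 85384 CPM in NZB replicate 2, where 1 cell held 4169 *Igkc* and 292 *Jchain* UMIs of 9093 in all, with 5 marker UMIs. All other myeloid-poor cells held 88 *Igkc* UMIs together. The cell was kept, and its UMIs are part of the 62986 of that mouse, the total behind every CPM of NZB replicate 2 in these cells. Genes of immature thymocytes (*Rag1*, *Rag2*, *Ptcra*, *Dntt*, and others) summed to 28 to 152 CPM and none was high enough to test.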

How the data were processed

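Marrow of 9 female mice (3 per strain) gave 1 library each. The deposited UMI counts per gene and barcode were made by the authors with Cell Ranger 3.1.0 (bcl2fastq 2.20, genome mm10, per the submitters' processing notes) from 9 merged libraries; whether merging thinned them to equal depth, and the annotation release, are not given in the sources used here. The counts are whole and not normalized. The number after each barcode was read as the row of the merged libraries' list, and columns without a mapped mouse numbered 0. Barcodes needed at least 1000 UMIs, 500 genes, and at most 10% mitochondrial UMIs.

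UMIs were summed per mouse and tested with edgeR 4.0.16 in R 4.3.3 (TMM, filterByExpr, robust quasi-likelihood), with the Benjamini-Hochberg correction over all genes tested and a threshold of 0.05. Cell numbers were tested in the same way with the mouse's total and no trend. The SE is the size of the log2 fold change over the root of F. A strain with 0 UMIs was given a floor of 3. The procedure was tested on simulated data: in the whole gate, 20 of 100 genes changed 2-fold and 75 of 100 changed 4-fold were recovered, with 7 others called. Doublets were not called here, and replicates are separate mice. Intervals cover counting error only. Sequences and positions are from GENCODE vM21 (GRCm38). Alternatives covered the limits of the gate, DESeq2 1.42.0, filters, scaling, free RNA, the replicate number as a block, and each mouse left out.

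The members and the gene lists were chosen with earlier results of these data known. Named genes are those of the rule, receptor constant genes, coreceptors, genes that the study names, up to 10 called genes of smallest p per comparison, and per list the 4 members of highest level and any called member. Genes beside *Cd3d*, those of the CD8 and CD4 description, and further called genes were chosen after their values were seen. A further gate, which enters the correction over 6 gates, is not reported here.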

Additional observations from a re-analysis of the deposited data

Results flagged for a closer look

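Differences between the parents that were unlike in different cell gates of the same mice, by the test of the interaction, are collected here. For the whole CD3 gate, 461 genes differed from the NK gate in NZB against NZW, among them *Nkg7* (interaction 3.30 on the log2 scale), *Ifitm2* (2.74), and *Arhgdib* (-1.87), and 1294 differed from the B gate, among them *Ckap4* (-4.56), *Cyba* (-2.49), and *Mcemp1* (-3.62). The share of myeloid-rich cells in the gate (18.1% in NZB, 79.9% in NZW) moves with these, and its part in any single gene was not tested; with the myeloid-poor cells in place of the gate the counts were 1 and 9.

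The 1 gene of the myeloid-poor cells that differed from the NK gate was *Nkg7* (1.36). It was at 521 to 783 CPM in the T-cell sums of NZB against 193 to 294 in those of NZW, and differed by 0.004 on the log2 scale in NK cells. The call is lost in 5 of 9 fits that leave out 1 mouse (NZB replicate 2 or 3, NZW replicate 2 or 3, or NZBWF1 replicate 2). The part of T-cell subset makeup in the *Nkg7* difference was not tested. The 9 that differed from the B gate were *S100a6* (-1.68), *Ly6a* (-1.83), *Gm8369* (-2.45), *Gimap3* (-2.03), *Bcl2* (-1.41), *BC018473* (-1.61), *Tspan32* (-1.54), *Id2* (-1.59), and *Shisa5* (-0.99), all with a lower value of NZB against NZW in T cells than in B cells. The part of B-gate makeup in these 9 was not tested.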

How the results depend on the processing

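The size of the gate depended on its definition. NZBWF1 against NZB was 0.79 with at least 3 marker UMIs, 0.59 at 500 UMIs and 250 genes, 0.86 with T markers alone, 0.83 with barcodes thinned to 1000 UMIs, 0.67 with at least 2 of the 4 markers, and 0.61 without mixed-lineage cells, none past the threshold. NZB against NZW was -0.50 (3 UMIs), -0.89 (T markers alone), and -0.48 (thinned), also not past it, and turned to 0.50 with 2 markers and 0.62 without mixed-lineage cells. NZBWF1 against NZW turned to 0.29, 0.35, 1.17, and 1.23 (3 UMIs, thinned, 2 markers, without mixed cells), and NZBWF1 against the mid-parent value passed with at least 1 marker UMI (0.81, adjusted p = 0.0493). For myeloid-poor cells NZBWF1 against NZB turned to -0.030 and NZB against NZW passed (0.84, adjusted p = 0.0375) at 500 UMIs, and NZBWF1 against the mid-parent value passed at 2000 UMIs and 1000 genes (0.98, adjusted p = 0.0304). An exact permutation of the shares gave 1.27 and -1.52 for the first 2 contrasts and, since it cannot go below 0.1, bears on neither. The cause of these changes was not tested.

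Counts of called genes in the whole gate were, for NZBWF1 against NZW, 98 with DESeq2, 339 with 3 marker UMIs, 340 at 500 UMIs, and 5 without mixed-lineage cells; against the mid-parent value, 31 with a filter of 1 UMI, 1 with 10 UMIs in every mouse, and 14 at 500 UMIs; against NZB, 220 (10 UMIs), 73 (3 marker UMIs), 756 (500 UMIs), and 5 (without mixed cells); and for NZB against NZW, 503, 684, and 24 (10 UMIs, 3 marker UMIs, without mixed cells). Without mixed cells *Trbc2* turned to 0.048 (NZBWF1 against NZB), -0.40 (NZBWF1 against NZW), and -0.45 (NZB against NZW). Subsets between the parents fell to 0 with CD4 at -0.26, and the interactions fell to 1 (NK) and 9 (B). Marker genes of the rule also turned, *Trac* to -0.24 and *Cd3g* to -0.12 (both NZBWF1 against NZW) and *Cd3d* to 0.13 (NZB against NZW). Since these genes chose the cells, their values are a description. In myeloid-poor cells the counts were 8, 10, 11, 10, and 1 for NZBWF1 against NZW (1 UMI, 3 marker UMIs, 500 UMIs, 2 markers, 10 UMIs), 0 against the mid-parent value (10 UMIs), 2 and 12 against NZB and 11 and 51 between the parents (10 UMIs, 500 UMIs), and 10 for the interaction with NK (1 UMI). The calls of *Apobec3* (2 settings), *Mndal* (4), *Ifitm2* in NZBWF1 against NZW (4), and *Gm2682* in NZBWF1 against NZB (7) were lost in some settings.

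Leaving out 1 mouse at a time gave, for the whole gate, sizes of -1.80 to -1.18 (NZB against NZW; not past the threshold without NZB replicate 2 or NZW replicate 1), 0.61 to 1.58 (NZBWF1 against NZB; not past it without NZBWF1 replicate 1, NZB replicate 2 or 3, or NZW replicate 3), -0.92 to 0.093 (against NZW), and -0.15 to 0.81 (against the mid-parent value), 999 to 1450, 210 to 477, 42 to 400, and 3 to 16 called genes in the same order, 5 to 6 subsets between the parents and 0 to 1 for NZBWF1, and interactions of 287 to 610 (NK) and 881 to 1387 (B). For myeloid-poor cells the sizes were 0.36 to 1.0, -0.22 to 0.96, 0.40 to 1.59, and 0.093 to 1.27 (the last passing without NZBWF1 replicate 2), the called genes 18 to 29, 3 to 5, 4 to 6, and 2 to 5, the subsets 0, and the interactions 0 to 4 (NK) and 2 to 19 (B). In neutrophil-rich barcodes 678 to 1332 genes were called and *Cd3d* was between -4.29 and -3.88.

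Replicate numbers are shared between strains, and no label ties a number to a batch. Of 9 same-numbered pairs, 1 deviated together at a correlation over 0.1 in the whole gate (range -0.13 to 0.15) and 5 in myeloid-poor cells (-0.12 to 0.20), and 4 and 5 of 9 mice correlated best with their own number. For want of such a label, the numbers were not taken as pairs in the main tests. Replicate 1 had the highest and replicate 2 the lowest share of gated cells, and of myeloid-poor cells, in all 3 strains. Replicate 1 was also the mouse with the fewest kept barcodes of its strain (NZB 2455, NZW 4309, NZBWF1 2566). The paper speaks of batches without saying which mice each held. Whether mice of the same number shared a batch was not tested. With a replicate block, 1289 genes were called between the parents in the whole gate, 128 in NZBWF1 against NZW, 26 between the parents in myeloid-poor cells, and 1827 in neutrophil-rich barcodes. The size of the whole gate was then -1.52 in NZB against NZW (adjusted p = 0.000487, edgeR) and 1.19 in NZBWF1 against NZB (adjusted p = 0.0034). In myeloid-poor cells NZBWF1 stood at 0.77 against the mid-parent value (adjusted p = 0.0535) and 1.03 against NZW (adjusted p = 0.0636). Subtraction of free RNA from the whole gate was not run, since the neutrophil list would have required 40.1% to 476.6% of the UMIs of a mouse to be free RNA, and CD8 against CD4 was not run, because 1 mouse alone met the chosen minimum of 10 cells of both. The myeloid-poor sums held 62986 to 185339 UMIs per mouse, and the test recovered 29 of 100 genes simulated with a 2-fold change there.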
